A study of Homo sapiens with 6 samples.

Results

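The integrin and laminin genes were read from RNA sequencing of HEK293 cells (an established line of human embryonic kidney origin), with 3 libraries whose label is TRDMT1 gene knockdown and 3 whose label is control. They were taken by symbol, as every row of the deposited table named as an integrin α chain, an integrin β chain or a laminin α, β or γ chain, which gave 39 of 57773 rows. These were 18 integrin α, 9 integrin β, 5 laminin α, 4 laminin β and 3 laminin γ rows, with 38 distinct symbols because ITGB3 appeared in 2 rows. TRDMT1, also called DNMT2, is a methyltransferase that acts on certain tRNAs, and the design asked what it does in these cells. Both groups carried the same cell line label, and neither the way the knockdown was made nor the nature of the control is given in the sources used here. The libraries held 24776040 to 40088993 counts each.

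Laminins are the cross-shaped proteins of the basement membrane, the thin sheet of matrix under epithelia. Each is a trimer of 1 α, 1 β and 1 γ chain, the trimer forms inside the cell before secretion, and the α chain carries the main sites that cells hold on to. Integrins are the receptors on the cell's side. Each is a pair of 1 α and 1 β chain that crosses the plasma membrane, binds laminin, collagen or fibronectin outside, and is tied to actin inside through talin and kindlin.

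The group labels did not match the level of the targeted gene. TRDMT1 stood at 0.58 RPKM (reads scaled by exonic length and library total) in each of the 3 knockdown-labelled libraries and at 0.36, 0.36 and 0.28 RPKM in the control-labelled libraries. It was therefore not lower in the knockdown-labelled libraries, and its log2 fold change there was 0.61 ± 0.21 (standard error; adjusted p = 0.0705, edgeR quasi-likelihood test). Directions below are between libraries as labelled, with the knockdown-labelled libraries minus the control-labelled libraries, and a positive value means a higher level in the knockdown-labelled libraries. The labels do not say that libraries came from separate cultures, so the p-values speak only of the variation among these 6 libraries, and that variation may be technical.

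Control replicate 2 stood apart from the other controls, and not in these genes only. Its counts differed from those of control replicates 1 and 3 by a chi-square per gene of 219 and 292, against 27.4 between those 2 controls. Pairs of knockdown-labelled libraries differed by 3.92 to 7.04, so control replicates 1 and 3 also differed more than any such pair. The edgeR test uses 1 estimate of spread for both groups, and fits without control replicate 2 rest on control replicates 1 and 3 only. In the members control replicate 2 was mostly the lowest control. Its level was 0.579 times the mean of control replicates 1 and 3 at the median of the 32 tested members, against 0.986 times over all 17805 genes tested. It lay below both other controls in 24 of the 32 members and above both in 6, where 44.2% of all tested genes lay below both and 42.8% above both. Where leaving it out changes the call of a member described here, the value without it stands beside the result. All 8 markers of HEK293 fixed for the check (such as VIM, KRT8, NEFM and PAX2) were present at 1 RPKM or more, with summed levels of 638 to 659 RPKM in the knockdown-labelled libraries and 753 to 812 in the control-labelled libraries. Summed markers were at most 1.09 RPKM for leukocytes, where 0 of 7 markers reached 1 RPKM, and at most 0.77 RPKM for endothelium, where 0 of 4 did and CDH5 was at 0.00 RPKM. Fibroblast markers summed to 4.74 to 5.16 RPKM against 1.56 to 6.08, with 1 of 7 (COL1A1) at 1 RPKM or more. Of that list COL1A2 had 159, 139 and 177 counts against 0 in every control-labelled library, and LUM was called lower (-1.62, adjusted p = 0.0364, edgeR). Markers of differentiated kidney tubule summed to 2.70 to 3.14 against 1.67 to 2.07 RPKM, mainly LRP2 and AQP1, with UMOD at 0 in every library. PECAM1 of the endothelial list was not analysed here. The HEK293, tubule and endothelial sums and COL1A2 did not overlap between the groups, and the part of these markers in the results was not tested. In bulk RNA, fewer cells of a type and less RNA per cell cannot be told apart.

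Of the 4 members that passed the test 3 were laminin chains, and all 3 were higher in the knockdown-labelled libraries. LAMA5 rose 2.13-fold, LAMC3 1.72-fold and LAMA3 1.46-fold. LAMA5 can join LAMC1 and either LAMB1 or LAMB2 in a trimer of epithelial basement membranes. Of these possible partners LAMB2 and LAMC1 did not pass the test (adjusted p = 0.0534 and 0.0812, edgeR), and LAMB1 had a log2 fold change of -0.03. In LAMA5, LAMB2 and LAMC1 every knockdown-labelled library lay above every control-labelled library, as in 23.9% of all genes tested. The sequences before the transcription starts of these 3 genes, chosen after their values were seen, are shown, 250 bases each from RefSeq (GRCh38.p14), 5′ to 3′ on the gene's strand, with capitals for the GC box GGGCGG on either strand. The windows are chr20:62367313-62367562 on the minus strand for LAMA5, chr3:49133051-49133300 on the minus strand for LAMB2 and chr1:183023170-183023419 on the plus strand for LAMC1.
LAMA5: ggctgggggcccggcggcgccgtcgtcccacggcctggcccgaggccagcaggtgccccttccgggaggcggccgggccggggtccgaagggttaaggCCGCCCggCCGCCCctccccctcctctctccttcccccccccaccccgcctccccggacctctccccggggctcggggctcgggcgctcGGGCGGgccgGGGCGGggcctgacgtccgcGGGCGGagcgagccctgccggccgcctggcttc
LAMB2: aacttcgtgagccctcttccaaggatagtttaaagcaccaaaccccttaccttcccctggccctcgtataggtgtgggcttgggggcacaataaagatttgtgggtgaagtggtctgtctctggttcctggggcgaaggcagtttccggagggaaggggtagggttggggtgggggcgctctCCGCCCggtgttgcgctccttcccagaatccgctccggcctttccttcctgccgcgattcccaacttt
LAMC1: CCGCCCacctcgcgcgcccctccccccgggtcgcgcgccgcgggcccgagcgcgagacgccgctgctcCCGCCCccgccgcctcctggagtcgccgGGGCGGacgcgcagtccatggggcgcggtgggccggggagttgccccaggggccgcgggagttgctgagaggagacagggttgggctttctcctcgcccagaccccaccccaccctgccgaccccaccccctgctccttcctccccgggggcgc
The GC box is the site read by SP1 and related factors. It occurred 5 times before LAMA5, once before LAMB2 and 3 times before LAMC1, and G and C made up 82.8%, 58.4% and 79.6% of the windows. Neither a TATA box (TATAAA) nor an AP-1 site (TGANTCA), each searched on both strands, was found in the 3 windows, which says nothing about the factors themselves. Over 35116 RefSeq windows of the same length, 42.6% held a GC box, 10.7% a TATA box and 6.57% an AP-1 site. Windows were found for 26 member symbols, 33 in all, of which 17 held a GC box, 2 a TATA box and 2 an AP-1 site. No binding was measured here, so these matches are given as descriptions only.

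Counts over the whole table give the measure against which the members stand. Of 17805 genes tested, 4267 (24%) passed an adjusted p of 0.05, 9.29% as higher and 14.7% as lower in the knockdown-labelled libraries. Of the 39 members, 32 were tested, 3 (9.38%) were called higher, 1 (3.12%) lower and 28 neither. The share of members called higher was thus near that of all genes. Without any 1 of the knockdown-labelled libraries 0 members were called in either direction. The counts higher and lower were 0 and 1 with control replicate 1 left out. They were 10 and 9 without replicate 2 of the controls and 7 and 2 without the third. Of all genes, 3.64% were called higher and 7.32% lower without control replicate 1. Those shares were 22.9% and 25.6% without control replicate 2, and 12.4% and 16.8% without control replicate 3. They were at most 1.94% and 5.43% without any 1 knockdown-labelled library. The median log2 fold change was 0.14 over the tested members and -0.04 over all tested genes, whose quartiles were -0.50 and 0.38. On values scaled to the plain library total instead (limma on log2(RPKM + 1)), 12.9% of all genes were higher and 8.58% lower, and the median over all genes was 0.08. The groups did not overlap, with the knockdown-labelled libraries above, in 10 members, against 23.9% of all genes. They did not overlap with those libraries below in 3 members, against 26% of all genes.

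**Figure D1:**
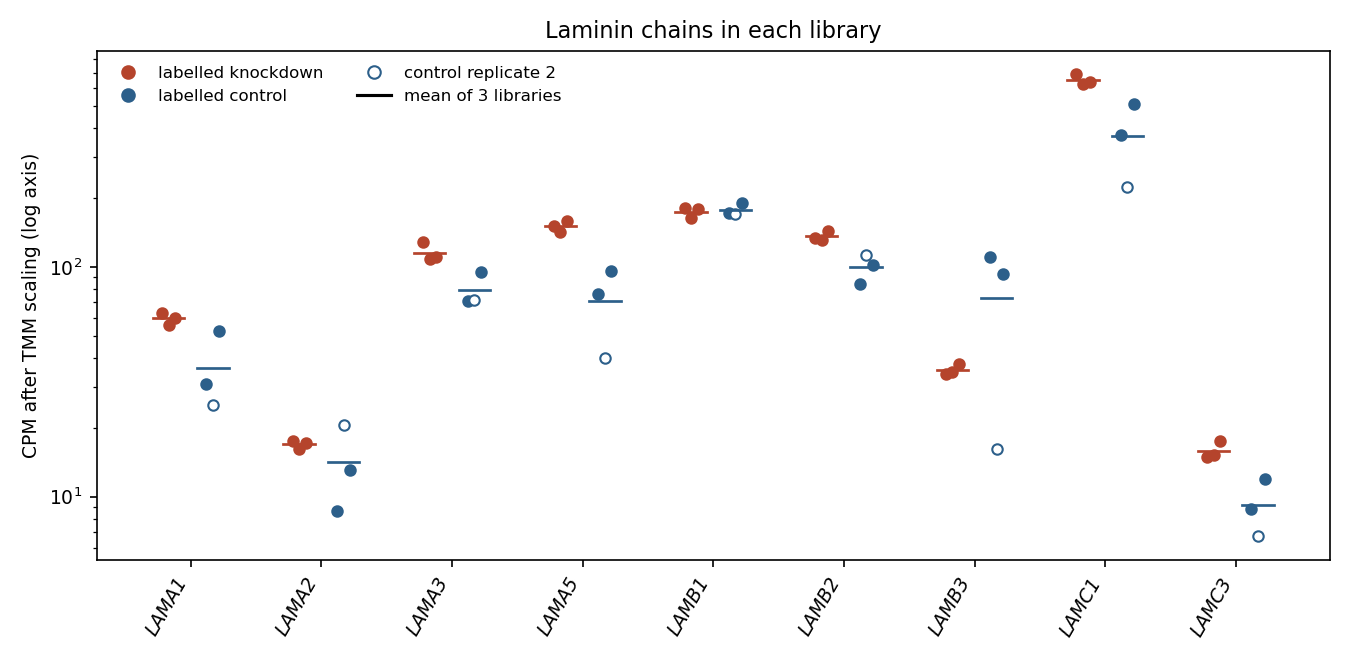
Levels of laminin chains in each library, as CPM after TMM scaling on a log axis. Filled circles are single libraries, the open circle is control replicate 2 and lines are means over 3 libraries per group. For LAMA1, LAMA3, LAMA5, LAMB2, LAMC1 and LAMC3 all knockdown-labelled libraries lie above all controls, as in 23.9% of all genes tested. For LAMB3 they lie between control replicate 2 and the other controls.

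Among the α chains, which decide what a laminin trimer binds, LAMA5 differed most. Its level was 151, 142 and 159 CPM (counts per library total, TMM-scaled) in the knockdown-labelled libraries and 76.0, 40.2 and 96.0 CPM in the control-labelled libraries. The lowest knockdown-labelled library lay above the highest control, and the lowest control was replicate 2. The log2 fold change was 1.09 ± 0.29 with an adjusted p of 0.0371 (edgeR). Without control replicate 2 it was 0.81, with an adjusted p of 0.000228. Without control replicate 1 or any 1 knockdown-labelled library it lay between 1.05 and 1.17, with adjusted p of at most 0.122 and in no case under 0.05. LAMA5 is rich in G and C, and with trends in base composition and length removed from each library the value was 0.55 with an adjusted p of 0.0616, where all alternatives gave adjusted p between 0.000228 and 0.122.

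LAMA3, the α chain of the laminin that anchors hemidesmosomes in stratified epithelia, stood at 128, 108 and 110 CPM against 71.0, 71.9 and 94.8 CPM. All knockdown-labelled libraries lay above all controls, and control replicate 2 was level with control replicate 1. The log2 fold change was 0.54 ± 0.15 (adjusted p = 0.0435, edgeR), and with the base composition and length trends removed it was 0.28 with an adjusted p of 0.111, within a range of 0.00392 to 0.165 over the alternatives. It was 0.47 to 0.59, with adjusted p of 0.115 to 0.165, without control replicate 1 or any 1 knockdown-labelled library. LAMA1, the α chain of the first embryonic basement membranes, stood at 63.1, 55.9 and 60.2 against 30.8, 24.98 and 52.8 CPM. These groups did not overlap either, but its log2 fold change of 0.72 ± 0.27 did not pass the test (adjusted p = 0.0943, edgeR). It was 1.10 without control replicate 3 (adjusted p = 0.00661) and 0.52 without control replicate 2 (adjusted p = 0.0388). With the base composition and length trends removed it did (0.51, adjusted p = 0.0419, range over the alternatives 0.00661 to 0.245), and LAMA1 was then the only member called higher. Antisense transcripts cover 11.1% of its exonic bases and could share its reads if strand was not used in counting.

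LAMA2, the α chain of the laminin around muscle fibres, was 16.9 ± 0.74 against 14.1 ± 5.97 CPM (mean ± SD, n = 3 each), and its groups overlapped. Its highest control was replicate 2, at 20.5 CPM, where control replicates 1 and 3 stood at 8.69 and 13.1. Its log2 fold change was 0.26 ± 0.29 with all libraries (adjusted p = 0.532, edgeR) and 0.63 without control replicate 2 (adjusted p = 0.00835). LAMA4, the α chain of vessels, was not tested, as its counts were at or near 0 in every library.

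The β chains LAMB1 and LAMB2 take the same place in a trimer, with LAMB1 the form of early and LAMB2 that of mature basement membranes. LAMB1 was 174 ± 8.92 against 177 ± 11.5 CPM (SD, n = 3 each), with a log2 fold change of -0.03 ± 0.11 (adjusted p = 0.881, edgeR). LAMB2 was 134, 131 and 143 CPM against 84.5, 113 and 102 CPM, so that its groups did not overlap. Its log2 fold change of 0.45 ± 0.14 lay just outside the threshold (adjusted p = 0.0534, edgeR). LAMB2 passed in 9 of 17 alternatives, among them the fit without control replicate 2 (0.55, adjusted p = 0.00113), but with the base composition and length trends removed its value was 0.03 (adjusted p = 0.923), the highest p of these alternatives.

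LAMC1, the γ chain shared by most laminins, was the most abundant laminin transcript. It stood at 691, 625 and 640 CPM in the knockdown-labelled libraries and at 376, 224 and 511 CPM in the control-labelled libraries. Every knockdown-labelled library lay above every control, while the controls spread from 224 to 511. Its log2 fold change was 0.82 ± 0.29 and did not pass the test (adjusted p = 0.0812, edgeR). Without control replicate 2 it was 0.56 with an adjusted p of 0.00426, in a range from 0.00229 to 0.212 over the alternatives, and without control replicate 3 it was 1.12 (adjusted p = 0.0238). LAMC3, a γ chain of lower level, stood at 14.8, 15.2 and 17.4 against 8.88, 6.72 and 12 CPM. It was called higher at 0.78 ± 0.22 (adjusted p = 0.0451, edgeR), and was 0.31 with an adjusted p of 0.187 once base composition and length trends were removed, the highest of its alternatives. It was 0.60 without control replicate 2 (adjusted p = 0.00709). Without control replicate 1 or any 1 knockdown-labelled library it was 0.71 to 0.83, with adjusted p of 0.120 to 0.162.

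LAMB3, a β chain that joins LAMA3 in the hemidesmosome laminin, had the largest downward value among the laminins. It stood at 34.2, 35.0 and 37.8 CPM against 110.1, 16.2 and 92.9 CPM. Control replicates 1 and 3 lay above all knockdown-labelled libraries and control replicate 2 lay below them, at 0.159 times the mean of the other two controls. With all libraries it did not pass the test (-1.04 ± 0.59, adjusted p = 0.235, edgeR). Without control replicate 2 it was called lower at -1.51 (adjusted p = 3.42e-06, range 2.57e-06 to 0.689 over the alternatives), while its partner LAMA3 was called higher in the same fit (0.48, adjusted p = 0.00977).

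As a class, the 10 tested laminins held 3 called higher (30%) and 0 called lower, against 9.29% and 14.7% of all genes. Their median log2 fold change was 0.50. At an unadjusted p under 0.05 edgeR had 6 laminins higher and 0 lower. Of all genes at least 9.29% and 14.7% passed that threshold, as they passed after adjustment. The exact shares of all genes at that threshold are not given here, so this count has no full measure beside it. DESeq2 called 6 higher and 0 lower, against 11.6% and 15.2% of all genes. By limma on log2(RPKM + 1) 2 were called higher and 0 lower, against 12.9% and 8.58%. With control replicate 2 left out, 7 were higher and 2 lower, where 22.9% and 25.6% of all genes were called. With the trends in base composition and length removed, 1 was higher and 0 lower, against 9.88% and 11.5% of all genes, with a median of 0.19.

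**Figure D2:**
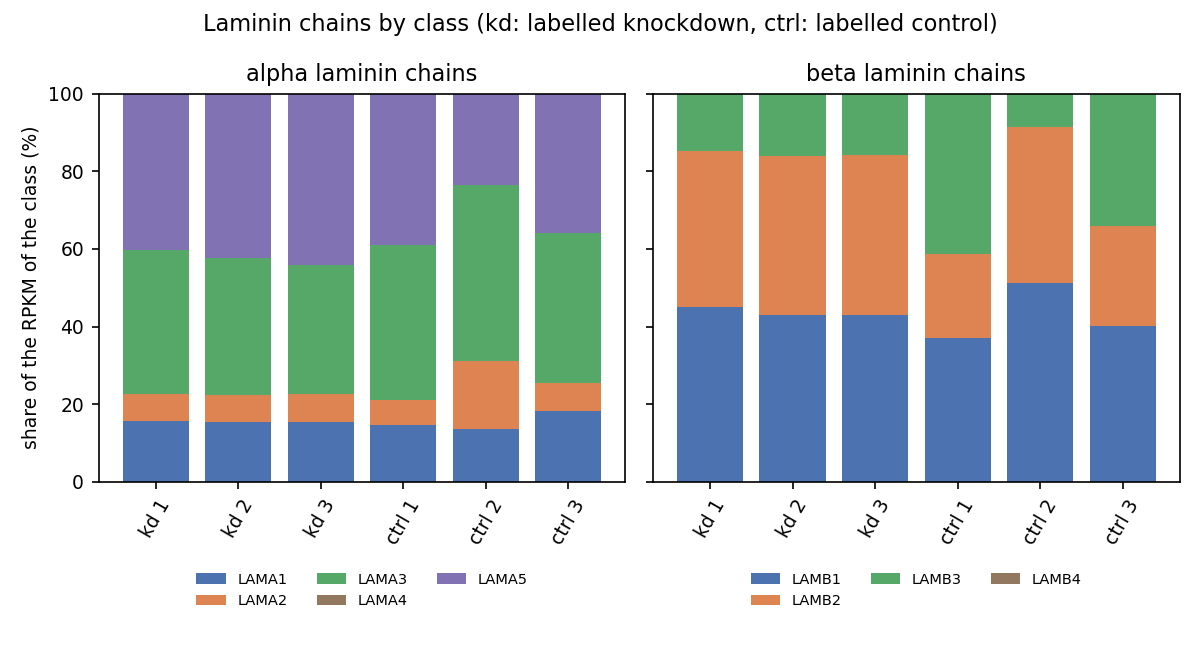
Share of each laminin α and β chain in the summed RPKM of its class, in percent, for every library. The share of LAMA5 is larger in every knockdown-labelled library than in any control, narrowly at 40.3% against 39.1% where they come closest. The shares of LAMA5 and LAMB3 are smallest in control replicate 2.

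RPKM corrects for the deposited exonic length but not for base composition, and GC content was 66.4% in LAMA5 and 48.65% in LAMC1. Levels of different chains are therefore set side by side on that scale as a rough description only. In the knockdown-labelled libraries LAMC1 stood at 82.4 ± 4.16 RPKM, LAMB1 at 22.7 ± 1.16, LAMB2 at 21.1 ± 1.06, LAMA5 at 10.9 ± 0.63, LAMA3 at 9.07 ± 0.81 and LAMB3 at 8.08 ± 0.45 (SD, n = 3). LAMB1 lay above LAMB2 and LAMA3 above LAMB3 in each of these 3 libraries, by mean differences that were small beside the levels. The γ chains summed to 93.8, 85.5 and 88.3 RPKM against 53.2, 24.8 and 71.6, and the α chains to 26.9, 24.2 and 26.1 against 13.2, 9.47 and 18.7. Neither sum overlapped between the groups. The β chains summed to 51.8 ± 2.33 against 49.7 ± 14.6 RPKM, and their groups overlapped. The α chain sum was the smallest of the 3 in every library, and the γ chain sum exceeded the β chain sum in the 3 knockdown-labelled libraries and in control replicate 3.

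The make-up of each class is less exposed to a common shift of the class than its level. LAMA5 was 42.3% ± 1.93 of the α chains in the knockdown-labelled libraries against 32.8% ± 8.28 in the control-labelled ones (SD, n = 3 each). Its single libraries were 40.3%, 42.3% and 44.2% against 39.1%, 23.4% and 35.9%. The groups thus did not overlap by a narrow margin, and control replicate 2 was far below the other controls. LAMA3 was 35.2% ± 1.92 against 41.3% ± 3.71. Trends in base composition were not removed from these shares. LAMB3 was 14.9%, 16.0% and 15.9% of the β chains against 41.3%, 8.50% and 34.1%. The exact permutation test of 3 against 3 libraries cannot go below p = 0.1, so these shares are given as descriptions.

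Of 22 integrin chains tested, 1 was called lower and 0 higher by edgeR, against 14.7% and 9.29% of all genes. Their median log2 fold change was -0.05. At an unadjusted p under 0.05 edgeR had 2 higher and 2 lower, where the exact shares of all genes are not given here. DESeq2 called 1 higher and 1 lower, and limma on log2(RPKM + 1) called 0 in either direction. Of all genes DESeq2 called 11.6% higher and 15.2% lower, and limma 12.9% and 8.58%. Without control replicate 2, 3 were called higher and 7 lower, against 22.9% and 25.6% of all genes. With the trends in base composition and length removed, 0 were higher and 2 lower (ITGA7 and ITGA9), against 9.88% and 11.5% of all genes.

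**Figure D3:**
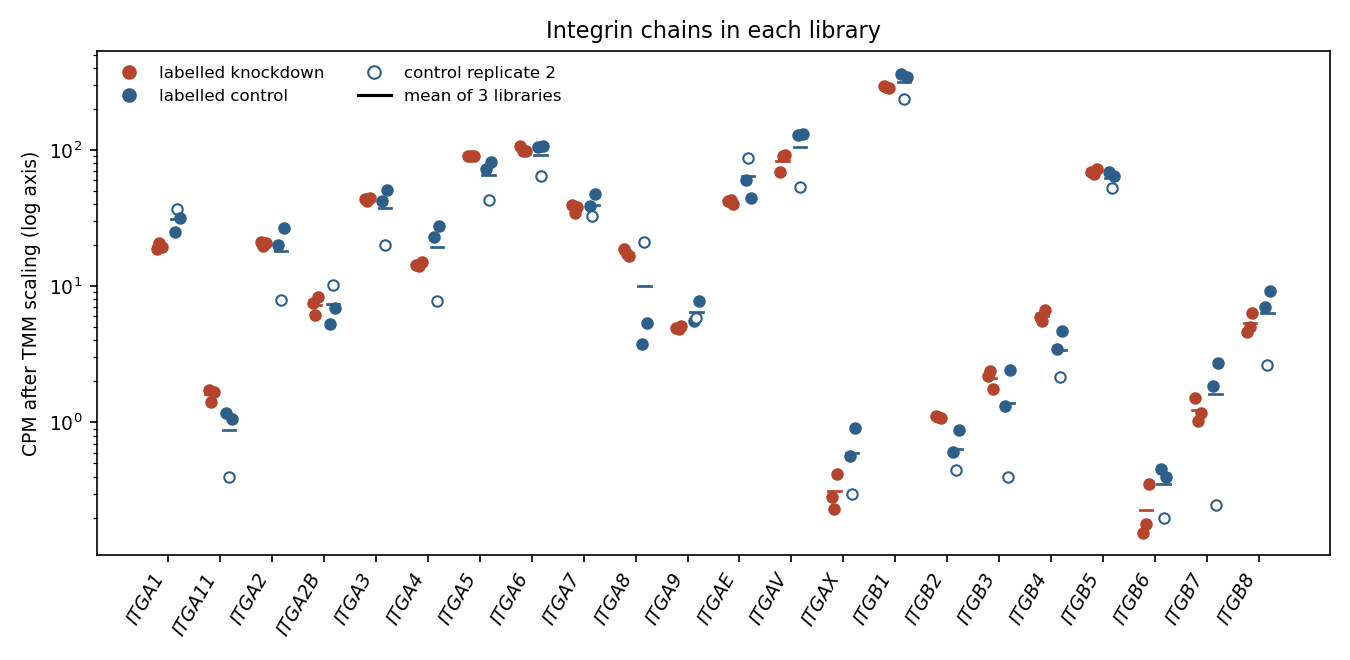
Levels of the 22 tested integrin chains in each library, as CPM after TMM scaling on a log axis. Filled circles are single libraries, the open circle is control replicate 2 and lines are means over 3 libraries per group. ITGB1 is the highest integrin in every library, ITGA1 is lower in all knockdown-labelled libraries than in any control, and control replicate 2 is the lowest control for all 8 β chains.

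ITGB1, the β1 chain, pairs with the receptors for laminin, collagen and fibronectin alike, and was the most abundant integrin. It stood at 295, 291 and 285 CPM against 363, 235 and 341 CPM, and the groups overlapped because control replicate 2 lay below and the other controls above the knockdown-labelled libraries. Its log2 fold change was -0.11 ± 0.18 (adjusted p = 0.686, edgeR) and -0.28 without control replicate 2 (adjusted p = 0.0119, range 0.0119 to 0.904 over the alternatives). With base composition and length trends removed it was 0.30 (adjusted p = 0.166), and 0.19 with that library left out as well (adjusted p = 0.0521). On the RPKM scale it was 50.3 ± 0.75 against 49.1 ± 15.6, which made 78.6% ± 1.02 and 81.7% ± 0.72 of all β integrin RPKM (SD, n = 3 each).

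ITGB5, the β5 chain that joins αV in a vitronectin receptor, came next at 11.4 ± 0.56 against 9.21 ± 2.22 RPKM. Its log2 fold change was 0.16 ± 0.14 (adjusted p = 0.421, edgeR). ITGB4, the partner of α6 in hemidesmosomes, lay just under 1 RPKM, at 5.91, 5.59 and 6.64 CPM against 3.45, 2.14 and 4.69 CPM. Its groups did not overlap, and its log2 fold change was 0.81 ± 0.28 (adjusted p = 0.0794, edgeR; 0.0294 by DESeq2, and 0.0177 by edgeR without control replicate 2). With base composition and length trends removed it was 0.37, and 0.20 with control replicate 2 left out as well (adjusted p = 0.26 in both). The other tested β chains were ITGB2, ITGB3, ITGB6, ITGB7 and ITGB8, at 0.04 to 0.46 RPKM on average in either group, and none of these 5 passed the test. Without control replicate 2, ITGB7 was called lower at -0.89 (adjusted p = 0.0142) and ITGB8 at -0.60 (adjusted p = 0.018). ITGB7 shares 42.1% of its exonic bases with ZNF740 on the other strand and ITGB3 51.6% with another annotated gene on its own strand, so their reads cannot be assigned with certainty. The second ITGB3 row had no counts.

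Integrin α chains fall into groups by what they bind. The laminin-binding chains ITGA3, ITGA6 and ITGA7 summed to 28.0, 26.1 and 26.7 RPKM in the knockdown-labelled libraries and to 26.0, 13.6 and 29.4 RPKM in the control-labelled libraries. The sum of these chains thus overlapped between the groups, with control replicate 2 lowest. It leaves out other receptors of laminin, such as ITGA1 below, whose groups did not overlap. ITGA6, the highest of all integrin α chains by mean RPKM, stood at 106, 99.1 and 97.9 CPM against 105, 64.0 and 107 CPM (0.13 ± 0.21, adjusted p = 0.667, edgeR). ITGA3, which prefers the α5 and α3 laminins, was 43.4 ± 1.002 against 37.7 ± 15.9 CPM (0.20 ± 0.31, adjusted p = 0.664). ITGA7, the laminin receptor of muscle, was 37.3 ± 2.34 against 39.6 ± 7.49 CPM (-0.09 ± 0.16, adjusted p = 0.720). ITGA7 was called lower with base composition and length trends removed (-0.47, adjusted p = 0.0258, range 0.000681 to 0.958 over the alternatives).

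ITGA1, the α1 chain of a collagen and laminin receptor, was the 1 member called lower. It stood at 18.8, 20.8 and 19.5 CPM in the knockdown-labelled libraries and at 25.2, 37.0 and 31.6 CPM in the control-labelled libraries. Every knockdown-labelled library lay below every control, and control replicate 2 was the highest. The log2 fold change was -0.67 ± 0.17 (1.59-fold lower, adjusted p = 0.0293, edgeR), and -0.52 without control replicate 2 (adjusted p = 0.00402). Without any 1 knockdown-labelled library it was -0.63 to -0.70, with adjusted p of 0.102 to 0.127. It was -0.30 with an adjusted p of 0.464 after the base composition and length trends were removed, the highest p of its alternatives, and its own GC content was 38.8% against a median of 48.8% over all tested genes. ITGA1 holds the gene PELO within it, and 5.63% of its exonic bases are shared on the same strand.

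ITGA2, the other collagen receptor at 1 RPKM or more, was 20.5 ± 0.80 against 18.2 ± 9.48 CPM (0.17 ± 0.38, adjusted p = 0.772, edgeR). Its controls were 19.9, 7.96 and 26.7 CPM, with control replicate 2 far below the rest. ITGA11 stood at 0.30 RPKM or less on average in either group, and ITGA10 was not tested. The 4 collagen-binding chains together summed to 4.18 ± 0.09 against 4.00 ± 1.46 RPKM.

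The chains that read the RGD motif of fibronectin and vitronectin, ITGA5, ITGA8, ITGAV and ITGA2B, summed to 27.3 ± 1.59 against 23.3 ± 8.45 RPKM. ITGA5, the α chain of the main fibronectin receptor, stood at 90.5, 90.6 and 89.7 CPM against 72.3, 43.2 and 82.2 CPM. The groups did not overlap, but the log2 fold change of 0.45 ± 0.23 did not pass the test (adjusted p = 0.187, edgeR; 0.23 and 0.0362 without control replicate 2). With base composition and length trends removed the value of ITGA5 was 0.18 (adjusted p = 0.467), and 0.023 with control replicate 2 left out as well (adjusted p = 0.786). Its share of all α integrin RPKM was 18.7% ± 0.28 against 13.1% ± 1.88, without overlap.

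ITGAV, the α chain of the vitronectin receptors, stood at 68.4, 89.7 and 92.1 CPM against 130, 53.1 and 130 CPM. Control replicate 2 lay below and the other two controls above all knockdown-labelled libraries. Its log2 fold change was -0.33 ± 0.34 (adjusted p = 0.503, edgeR) and -0.64 without control replicate 2 (adjusted p = 0.00216, range 0.00216 to 0.986 over the alternatives). With base composition and length trends removed it was 0.24 (adjusted p = 0.527), and 0.003 with that library left out as well (adjusted p = 0.986).

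ITGA8, which pairs with β1 and binds nephronectin in the developing kidney, had the reverse order of controls. It stood at 18.6, 17.1 and 16.6 CPM in the knockdown-labelled libraries and at 3.76, 21.2 and 5.38 CPM in the control-labelled libraries. Control replicate 2 held 4.63 times the mean of the other two controls and lay above every knockdown-labelled library. The log2 fold change was 0.80 ± 0.60 with all libraries (adjusted p = 0.351, edgeR) and 1.93 without control replicate 2 (adjusted p = 1.33e-05, range 5.24e-06 to 0.578 over the alternatives). Control replicate 1 held 99 counts of ITGA8, with an exact 95% Poisson interval of 80.5 to 121 that covers counting error only, so counting error does not span the gap to control replicate 2. Its ligand gene NPNT fell (log2 fold change -0.57, adjusted p = 0.0133, edgeR), at 52.3, 49.4 and 51.2 CPM against 70.9, 81.0 and 74.4 CPM, with no overlap and with control replicate 2 the highest control.

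ITGA2B, best known from platelets, was 7.34 ± 1.10 against 7.46 ± 2.50 CPM (-0.02 ± 0.26, adjusted p = 0.965, edgeR). ITGA4, which binds fibronectin and the vascular ligand VCAM1, was 14.2, 14.0 and 15.1 CPM against 23.0, 7.81 and 27.9 CPM. It had the order seen in LAMB3 and ITGAV, with a log2 fold change of -0.44 ± 0.41 (adjusted p = 0.456, edgeR) and -0.81 without control replicate 2 (adjusted p = 0.000253, range 0.000185 to 0.920). ITGAE, which pairs with β7 on intraepithelial lymphocytes and binds E-cadherin, stood at 42.4, 42.9 and 40 CPM against 60.2, 87.7 and 44.2 CPM. Its groups did not overlap, and its log2 fold change of -0.62 ± 0.24 did not pass the test (adjusted p = 0.105, edgeR). Control replicate 2 was the highest control, and without it the value was -0.32 (adjusted p = 0.0597), while without control replicate 3 it was -0.83 (adjusted p = 0.0224). HASPIN lies within ITGAE on the other strand, and with a further antisense transcript it covers 7.59% of its exonic bases.

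ITGA9, a partner of β1 that binds tenascin, stood at 0.64 RPKM in the knockdown-labelled libraries and 0.74 in the control-labelled libraries (-0.37 ± 0.19, adjusted p = 0.186, edgeR). The leukocyte chains ITGAD, ITGAL, ITGAM and ITGAX together summed to 0.13 to 0.17 RPKM against 0.07 to 0.18 RPKM. Of these only ITGAX was tested, and it was not called with all libraries (-0.94, adjusted p = 0.175, edgeR) but was called lower without control replicate 2 (-1.22, adjusted p = 0.028). The 7 members left out by the filter on low counts were ITGA10, ITGAD, ITGAL, ITGAM, LAMA4, LAMB4 and the second ITGB3 row, with at most 8 counts in any library. A count of 0 in a library allows a level of up to 0.0702 to 0.149 CPM on the TMM-scaled totals, taken as 3 counts.

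**Figure D4:**
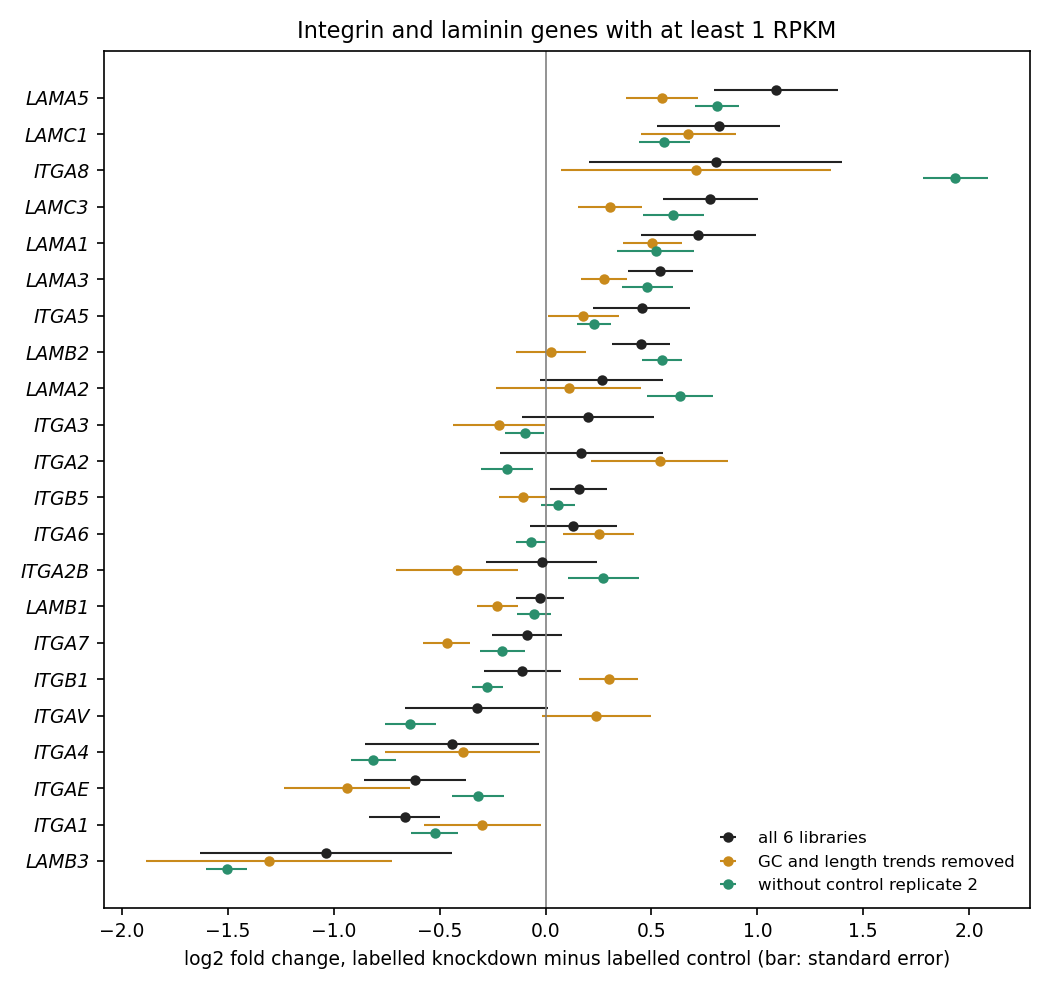
Log2 fold change of integrin and laminin genes at 1 RPKM or more, with bars for the standard error, in the fit with all 6 libraries, with base composition and length trends removed, and without control replicate 2. LAMA5, LAMC1, LAMC3, LAMA1 and LAMA3 stay above 0 in the 3 fits, LAMB3, ITGA4, ITGAE and ITGA1 stay below 0, and ITGA8 moves from 0.80 to 1.93 when control replicate 2 is left out.

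Across the 32 tested members the log2 fold change correlated with GC content at Pearson's r = 0.30 (Spearman's rho 0.31), and across all tested genes with a known GC content at r = 0.38 (n = 17302). These are correlations across genes of the same libraries, given as descriptions. After removal of the trends in base composition and length the value over the members was -0.21. Whether base composition has a part in the differences of single members was not tested beyond these fits.

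Genes that work with integrins and laminins were read from 5 lists of 95 genes. Of 91 tested, 12 (13.2%) were called higher and 10 (11%) lower, with a median log2 fold change of 0.32. These counts were 1 to 2 higher and 0 lower without any 1 knockdown-labelled library, 5 and 3 with control replicate 1 left out, 37 and 21 without replicate 2 of the controls and 23 and 13 without the third. Without control replicate 2, 22.9% of all genes were called higher and 25.6% lower, and without control replicate 3 12.4% and 16.8%. The partners of laminin in the basement membrane (nidogens, collagen IV, perlecan, agrin and the FRAS1 complex) had 4 of 13 (30.8%) called higher and 0 lower, against 9.29% and 14.7% of all genes, and in this fit all 13 fold changes lay above 0. With base composition and length trends removed, 2 were called higher and 0 lower, against 9.88% and 11.5% of all genes, with a median of 0.40. COL4A1 (-0.19) and COL18A1 (-0.33) then lay below 0, as they did without control replicate 2 (-0.34 and -0.06). With all libraries and at an unadjusted p under 0.05 edgeR had 9 higher and 0 lower, where the exact shares of all genes are not given here. DESeq2 called 9 higher and 0 lower, against 11.6% and 15.2% of all genes, and limma on log2(RPKM + 1) 6 and 0, against 12.9% and 8.58%. In 10 of the 13 the groups did not overlap, with the knockdown-labelled libraries above, as in 23.9% of all genes. Control replicate 2 was the lowest control in 11 of them, at a median of 0.486 times the other two, and with that library left out 10 were called higher and 1 lower, against 22.9% and 25.6% of all genes.

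COL4A5, a collagen IV chain of kidney basement membranes, stood at 65.9, 68.3 and 69.6 CPM against 45.8, 40.1 and 53.1 CPM (0.55 ± 0.14, adjusted p = 0.0275, edgeR). AGRN, the proteoglycan agrin that binds the laminin γ1 chain, stood at 438, 433 and 476 CPM against 262, 160 and 287 CPM (0.93 ± 0.23, adjusted p = 0.0278, and 0.71 without control replicate 2). FRAS1, part of a complex under embryonic epithelia, stood at 65.3, 57.8 and 58.1 against 30.4, 28.7 and 46.9 CPM (0.77 ± 0.21, adjusted p = 0.0359). In all 3 genes, picked by their p, every knockdown-labelled library lay above every control, as in 23.9% of all genes. The remaining called gene was COL4A6 (0.61), and of these 4 only FRAS1 was also called with base composition and length trends removed.

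Over all genes, edgeR called 9.29% higher and 14.7% lower, DESeq2 11.6% and 15.2%, and limma on log2(RPKM + 1) 12.9% and 8.58%. For the counts at an unadjusted p in this paragraph the exact shares of all genes are not given here. Receptors of laminin other than integrins, such as dystroglycan and the syndecans, had 0 of 11 called in either direction by edgeR, with a median of -0.02. At an unadjusted p under 0.05 edgeR had 1 higher and 2 lower, DESeq2 called 0 higher and 1 lower, and limma on log2(RPKM + 1) 1 higher and 0 lower. With base composition and length trends removed, edgeR called 1 higher and 2 lower, against 9.88% and 11.5% of all genes. Without control replicate 2 it called 1 higher and 3 lower, against 22.9% and 25.6%. Among membrane proteins that associate with integrins, 0 of 11 were called higher and 2 lower by edgeR. At an unadjusted p under 0.05 edgeR had 2 higher and 4 lower, DESeq2 called 2 higher and 3 lower, and limma on log2(RPKM + 1) 2 and 1. The lower ones were PLAUR, the urokinase receptor (17.2 against 31.4 CPM, -0.87 ± 0.17, adjusted p = 0.0141), and CD47, which binds αVβ3 and thrombospondin (43.1 against 59.4 CPM, -0.46 ± 0.12, adjusted p = 0.0305). The value of CD47 was 0.04 with base composition and length trends removed (adjusted p = 0.873).

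Of 22 other ligands of integrins, edgeR called 3 (13.6%) higher and 4 (18.2%) lower, against 9.29% and 14.7% of all genes. DESeq2 called 7 higher and 4 lower, against 11.6% and 15.2% of all genes, and limma on log2(RPKM + 1) 6 higher and 0 lower, against 12.9% and 8.58%. FN1, fibronectin itself, stood at 1155, 1014 and 1092 CPM against 538, 265 and 656 CPM (1.16 ± 0.32, adjusted p = 0.0413, edgeR, and 0.87 without control replicate 2). FBN1, the microfibril protein fibrillin 1, stood at 68.6, 62.2 and 64.1 against 18.4, 16.5 and 29.2 CPM (1.604 ± 0.227, adjusted p = 0.00456), the largest log2 fold change in these 5 lists. EMILIN1, of elastic fibres, was 4.45 ± 0.38 against 2.34 ± 0.08 CPM (0.93, adjusted p = 0.0113). Among the lower ones were TGFB2, a growth factor that αV integrins can release from its latent form (4.02 against 8.64 CPM, -1.11, adjusted p = 0.0100), NPNT, given above, and CTGF, a matricellular protein (20.2 against 37.2 CPM, -0.88, adjusted p = 0.0343). With base composition and length trends removed, edgeR no longer called EMILIN1 (0.50, adjusted p = 0.0644), TGFB2 (-0.55, adjusted p = 0.054) or CTGF (-0.90, adjusted p = 0.0561). FN1, FBN1 and NPNT were still called in that fit.

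Proteins that activate integrins or tie them to actin had 5 of 34 (14.7%) called higher and 4 (11.8%) lower by edgeR, against the same shares of all genes as above. They had 9 and 5 by DESeq2, and 7 and 1 by limma on log2(RPKM + 1), against the shares of all genes given above for these methods. PARVA, parvin α of the ILK complex, stood at 63.0 against 38.2 CPM (0.72 ± 0.12, adjusted p = 0.00714, edgeR), BCAR1, the adaptor p130Cas, at 79.6 against 40.9 CPM (0.96 ± 0.18, adjusted p = 0.0106), and ILK at 18.4 against 12.8 CPM (0.52 ± 0.12, adjusted p = 0.0232). The lower ones named by p were RAP1A, the small GTPase that brings talin to integrins (37.0 against 58.2 CPM, -0.65 ± 0.15, adjusted p = 0.0214, but -0.03 and 0.859 with base composition and length trends removed), ITGB3BP, which is also a centromere protein (30.9 against 69.0 CPM, -1.16 ± 0.28, adjusted p = 0.0250, and -0.77 without control replicate 2), and ITGB1BP1, a regulator of β1 (50.7 against 69.7 CPM, -0.46 ± 0.12, adjusted p = 0.0315). In each of these 6 genes, picked by their p, the groups did not overlap. Of all genes, 23.9% did not overlap with the knockdown-labelled libraries above and 26% with them below. With base composition and length trends removed, edgeR also no longer called ILK (0.37, adjusted p = 0.056), ITGB3BP (-0.98, adjusted p = 0.0547) or ITGB1BP1 (-0.35, adjusted p = 0.0921). PARVA and BCAR1 were still called in that fit.

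**Figure D5:**
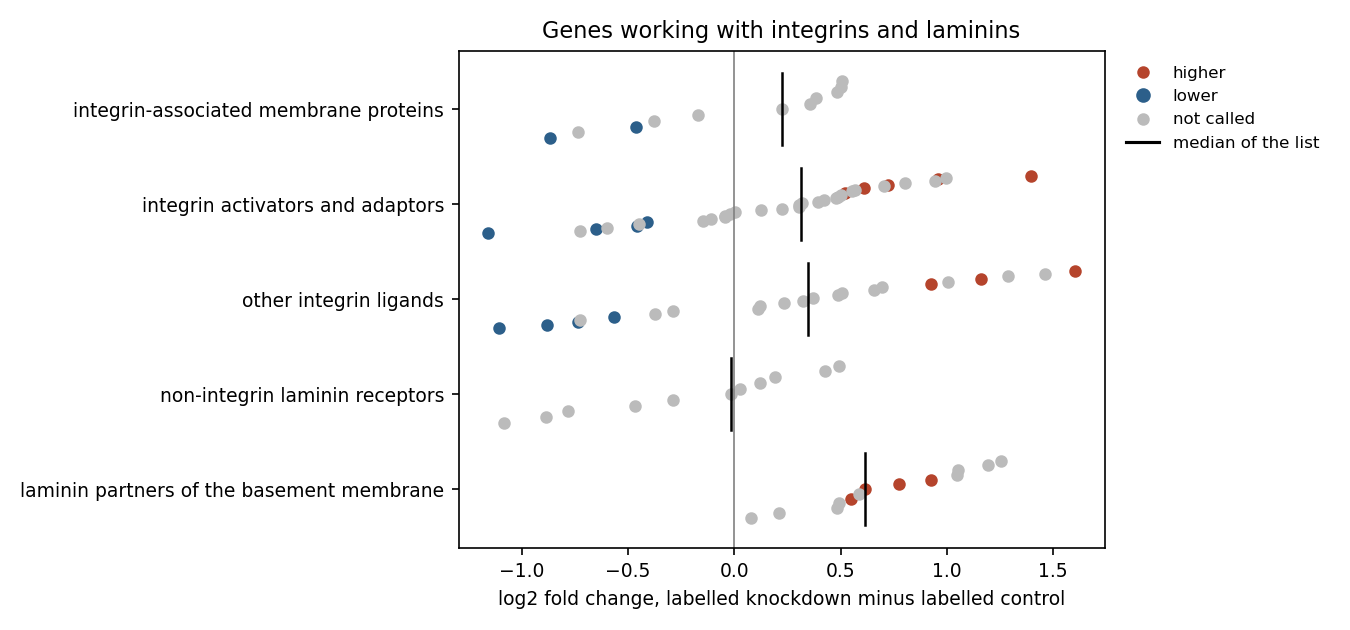
Log2 fold change of the 91 tested genes that work with integrins and laminins, one row of points per list, coloured by the call at an adjusted p of 0.05, with a line at the median of each list. In this fit with all libraries all 13 basement membrane partners lie above 0, with a median of 0.61, and none of the 11 other laminin receptors is called.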

How the data were processed

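RNA of HEK293 cells was measured in 6 libraries, 3 per group. The labels' protocols name depletion of ribosomal RNA, an RNA methylation kit that works by bisulfite, and a stranded kit for library construction. Whether the table comes from treated libraries, and the aligner, annotation and strand setting of the counting, are not given in the sources used here. Conversion of cytosine could make the share of reads placed depend on base composition. The submitters' processing notes name genome build hg19 and, with no role stated, the tools HTSeq (0.6.1), edgeR (3.4.6), DESeq (1.18.0), DESeq2 (1.6.3), StringTie (1) and bcl2fastq (2.17.1.14). The deposited read counts per gene were not normalized by the authors. The deposited RPKM values equalled the authors' counts scaled by the deposited exonic length (in bases) and the library total to within 0.005. Columns were tied to samples by the second name in each description; TK stands in the second names of the controls, while the titles give TKD to the knockdown samples.

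Counts were tested with edgeR 4.0.16 (R 4.3.3; TMM, filterByExpr, robust quasi-likelihood F test, both groups sharing 1 estimate of spread), with Benjamini-Hochberg adjustment over all 17805 genes tested and a threshold of 0.05. Standard errors were derived from the fold change and its F statistic. CPM were computed after TMM scaling. GC content came from the longest transcript in GENCODE, matched by gene identifier for 97.2% of tested genes, and exonic overlaps from the same annotation. That annotation is of another build than hg19, so only RefSeq windows carry coordinates. Alternatives were upper quartile and DESeq2 size factors, DESeq2 1.42.0, limma-trend (limma 3.58.1) on log2(RPKM + 1) and log2(RPKM + 0.1), no filter, a filter of at least 10 counts in every library of a group with a mean of 1 RPKM, a replicate block, length and GC trends removed per library (mgcv 1.9.3), and leaving out each library. On simulated counts for this comparison (17541 genes tested, 200 changed), edgeR recovered 200 of the changed genes and called 13 others. These counts had the same fixed spread for every gene and no library that stood apart as control replicate 2 does. The recovery therefore checks the code and does not measure the power of the test in the real libraries. The members, lists and alternatives were chosen with earlier results of these data known. Named genes were TRDMT1, every member past the threshold or at 1 RPKM or more in either group, and up to 3 genes per direction of each partner list. ITGB4, ITGA9 and other members below 1 RPKM are given to say at what level they were read. Any 2 libraries of a group differed by more than sampling noise, so none was counted as a repeat of another. Results of 1 member are not reported here, while counts and sums over the members include it.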

Additional observations from a re-analysis of the deposited data

How the results depend on the processing

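The member counts moved most with single libraries. Members called higher numbered 3 with all libraries and 0 to 10 with 1 library left out, and members called lower 1 and 0 to 9. Partner genes called higher numbered 12 and 1 to 37, and those called lower 10 and 0 to 21. The highest number in each range was without control replicate 2, where 22.9% of all genes were called higher and 25.6% lower. Leaving out a library labelled knockdown gave 0 members in either direction, where 333, 347 and 305 of all genes were higher and 913, 968 and 886 lower. DESeq2 called 7 members and 27 partners higher, limma on log2(RPKM + 1) 22 partners higher, 0 members and 2 partners lower, and limma on log2(RPKM + 0.1) 1 member higher, 0 members and 2 partners lower. With the length trend removed, 6 members were higher and 0 lower, with 26 partners higher, and with GC and length trends removed 1 and 2 members. Of all genes, 13.5% were higher and 15.1% lower with the length trend removed, and 9.88% and 11.5% with both trends removed. DESeq2 called 11.6% of all genes higher and 15.2% lower. The shares were 12.9% and 8.58% for limma on log2(RPKM + 1), and 11.4% and 8.59% on log2(RPKM + 0.1). An alternative chosen after seeing the data, without control replicate 2 and with GC and length trends removed, gave 7 members and 36 partners higher, 10 members and 22 partners lower. In that fit 23.7% of all genes were called higher and 23.2% lower. Over all genes, limma on log2(RPKM + 1) called 2299 higher and 1527 lower, where edgeR called 1654 and 2613, and limma on log2(RPKM + 0.1) had a median of 0.15.

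Samples of the same replicate number did not deviate together (correlations -0.04, 0.057 and 0.001). The labels do not say whether the numbers pair the samples, and these correlations cannot settle it. With the replicate block, 2 members were higher and 0 lower, with 16 partners higher and 3 lower, and the log2 fold change of TRDMT1 was 0.63. In that fit 6.21% of all genes were called higher and 10.5% lower.

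TRDMT1 passed the threshold under DESeq2 (0.653), limma on log2(RPKM + 1) (0.245) and on log2(RPKM + 0.1) (0.656), without control replicate 2 (0.789, adjusted p = 0.00249), with GC and length trends removed (1.109) and in the added alternative (1.472), and it ranged from 0.454 to 0.789 with 1 library left out. The filter on 1 RPKM left TRDMT1 out.

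Of the 23 named members, 13 kept their sign in every alternative. ITGA2B, at -0.02, was 0.033 with upper quartile scaling, 0.007 with DESeq2 size factors, 0.021 with DESeq2, 0.109 and 0.184 with limma at the larger and the smaller pseudocount, 0.067 without a filter, 0.019 with the block and -0.171 to 0.273 with 1 library left out. LAMB1, at -0.03, was 0.031 with upper quartile scaling, 0.008 with DESeq2, 0.145 and 0.151 with limma and 0.048 without a filter. Under limma ITGA7 was 0.085 and 0.104 and ITGB1 0.09 and 0.093. With GC and length trends removed ITGA3 was -0.218, ITGAV 0.24, ITGB1 0.297 and ITGB5 -0.108. In the added alternative ITGA1 was 0.105, ITGA3 -0.437, ITGAV 0.003, ITGB1 0.187 and ITGB5 -0.143. With 1 library left out ITGA2 ranged from -0.181 to 0.547, ITGA3 from -0.098 to 0.469, ITGA6 from -0.07 to 0.268, ITGA7 from -0.203 to 0.063, ITGB1 from -0.275 to 0.043 and LAMB1 from -0.054 to 0.026. The cause of these changes was not tested. Of these values that differ in sign, only that of ITGA3 in the added alternative passed the threshold (adjusted p = 0.000569).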
